A study of Homo sapiens with 6 samples.

Results

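The transcripts described here encode double-stranded RNA effectors of the interferon response: the oligoadenylate synthetase family (OAS1, OAS2, OAS3 and OASL) and the kinase PKR (EIF2AK2). They were taken by symbol as a functional group, with earlier results of these data already known, and are 5 of the 56303 genes in the count table. The RNA-seq compared 786-O cells transfected with an siRNA against NFE2L3 (siNFE2L3, n = 3 libraries, labelled 48 h) with control 786-O cells. NFE2L3 is a CNC-family bZIP transcription factor. The controls (siControl, n = 3 libraries, labelled 0 h and WT) are titled NC. That they received the paper's NC siRNA was inferred from this title, as the paper calls them only control cells. The 786-O line derives from a clear cell renal carcinoma and lacks a functional VHL protein. Since time and siRNA change together in the labels, their effects cannot be told apart. Which NFE2L3 siRNA was used is not known from the labels or methods. In the genotype label of 2 knockdown libraries the gene is numbered NFE2L4 or NFE2L5, while the title and source name of each give NFE2L3.

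OAS1, OAS2 and OAS3 are enzymes that, on binding double-stranded RNA, join ATP into short chains of adenylate linked 2′ to 5′ (2-5A). These chains act as a signal that leads to the cleavage of viral and cellular RNA. OASL keeps the family's fold but makes no 2-5A in human cells, and is known to act with the RNA sensor RIG-I. PKR binds double-stranded RNA too, and phosphorylates the translation factor eIF2α, which slows protein synthesis. All of them are known interferon-stimulated genes, with a basal level in many epithelial cells.

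NFE2L3 itself had 1087, 1075 and 1068 reads in the siNFE2L3 libraries, against 6171, 6508 and 6403 reads in the siControl libraries (log2 fold change -2.54 ± 0.048 SE). Total counts ran from 51828446 to 56806368 per siNFE2L3 library and from 53051297 to 57391929 per siControl library. Of the renal carcinoma markers, PAX8, VIM, KRT8, KRT18, VEGFA and CDH2 were all above 100 mean CPM (counts scaled to library size) in both groups, while CA9 and NDUFA4L2 were under 1 CPM in every library. Markers of other cells were low, with 5 of 7 immune, 4 of 4 endothelial and 4 of 4 fibroblast markers under 1 CPM in every library. The summed immune markers, nearly all CD68, ran from 116 to 121 CPM in siNFE2L3 and from 124 to 146 CPM in siControl, and their part in the results was not tested. The paper's statistics section speaks of independent trials in general without saying whether these 6 libraries came from separate cultures, so the p-values reflect the spread over these libraries alone, and that spread may be technical. In bulk RNA, fewer cells that express a gene and less RNA per cell cannot be told apart.

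The promoter sequences of the members are shown because these genes are known targets of ISGF3, the transcription complex of the interferon response. This complex binds the interferon-stimulated response element (ISRE). Whether ISGF3 had a part in the changes reported here was not tested. RefSeq promoter windows of GRCh38.p14 matched 3 of the 5 members, OAS1, OAS3 and EIF2AK2. Each is printed 5′ to 3′ on the gene's own strand, over 270 bases that end 20 bases into the RefSeq transcript. In the annotation used for counting, these genes start earlier, inside the windows, at 112906777, 112938352 and 37157065. The matches nearest the RefSeq starts therefore lie within counted exons. The core of an ISRE was searched on both strands as GAAANNGAAA or, with the shorter spacer, as GAAANGAAA, this shorter form added after the OAS1 window had been seen. Capitals mark every match to either form.
OAS1 (chr12:112906712-112906981, plus strand): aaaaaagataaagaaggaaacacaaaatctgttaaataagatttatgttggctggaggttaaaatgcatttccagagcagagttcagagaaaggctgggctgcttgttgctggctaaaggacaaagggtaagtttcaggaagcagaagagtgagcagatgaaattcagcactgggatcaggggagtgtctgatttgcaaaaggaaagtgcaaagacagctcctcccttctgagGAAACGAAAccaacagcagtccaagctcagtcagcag
OAS3 (chr12:112938224-112938493, plus strand): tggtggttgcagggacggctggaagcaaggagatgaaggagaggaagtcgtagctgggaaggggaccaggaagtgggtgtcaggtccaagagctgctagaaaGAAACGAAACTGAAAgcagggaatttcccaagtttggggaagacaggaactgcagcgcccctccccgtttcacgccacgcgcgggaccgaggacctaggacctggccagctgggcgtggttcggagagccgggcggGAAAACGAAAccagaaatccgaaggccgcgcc
EIF2AK2 (chr2:37156961-37157230, minus strand): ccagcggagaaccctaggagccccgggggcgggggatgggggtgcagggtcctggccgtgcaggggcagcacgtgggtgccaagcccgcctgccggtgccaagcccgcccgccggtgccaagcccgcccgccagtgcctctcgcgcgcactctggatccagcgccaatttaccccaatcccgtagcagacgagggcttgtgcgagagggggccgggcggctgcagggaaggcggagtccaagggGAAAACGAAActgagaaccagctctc
Every printed window holds at least 1 match, within 17 bases before its RefSeq start base or across it. For OAS1 this rests on the shorter form alone, so its match was known before that form was searched. The longer form is in the OAS3 and EIF2AK2 windows only.

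With the RefSeq start base as position 0, the OAS1 match spans -17 to -9 and has the shorter spacer. OAS3 has a match with the longer spacer at -12 to -3, and a second at -143 to -134 that overlaps a shorter-spacer match at -148 to -140. The EIF2AK2 match lies at -6 to 3. Over all 35116 RefSeq windows of 300 bases, 3.57% hold the longer form, 3.12% the shorter and 6.40% either. A match describes the letters of the window only. Among the other antiviral interferon-stimulated genes listed below, 25 of the 36 with a window (69.4%) hold the longer form, against 345 of 11161 tested genes with a window (3.09%). These genes were listed as interferon-stimulated, so a high share was likely from the outset. The holders include lower genes, genes that did not pass the test and the 1 higher gene of that list. The shorter form is in 12 of the same 36 windows (33.3%), against 295 of the 11161 (2.64%). Elsewhere in the lists it is in TRIM25 of the double-stranded RNA sensors and P2RX7 of the chromosomal neighbours only. In the other lists the longer form is in 0 of 16 windows around PKR and eIF2, 0 of 7 of the ISGF3 and IRF genes, 0 of 3 around 2-5A, 2 of 13 of the double-stranded RNA sensors, 4 of 14 of the interferon ligands and receptors and 1 of 8 of the chromosomal neighbours. The letters TTCNNNGAA of the interferon-gamma activated site, which read the same on both strands, occur once in the 3 member windows, in OAS1 at -168 to -160, and in 7.66% of all windows. The letters TGACNNNGC of the antioxidant response element, the element known for CNC factors, occur once too, in OAS1 at 7 to 15 on the opposite strand, and in 13.3% of all windows.

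All 5 members passed the filter on low counts and all 5 were lower in siNFE2L3 than in siControl at an adjusted p under 0.05, where 14.0% of all 19916 tested genes were lower and 12.7% higher by the same rule. By point estimate the fall was largest for OASL, to 49.2% of the siControl level. OAS1 followed at 56.2%, OAS2 at 67.2%, OAS3 at 79.8% and EIF2AK2 at 91.6%. No member's groups overlapped, which held with the siNFE2L3 libraries lower for 20.4% of tested genes. The study's cutoffs, an unadjusted p under 0.05 and at least a 2-fold change, were also applied to the present test. Only OASL of the 5 was then lower, as were 75 of all tested genes (0.377%). The paper reports more downregulated transcripts for this contrast, from its own edgeR version and processing. The median log2 fold change of the members was -0.57, against -0.00066 over all tested genes.

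**Figure D1:**
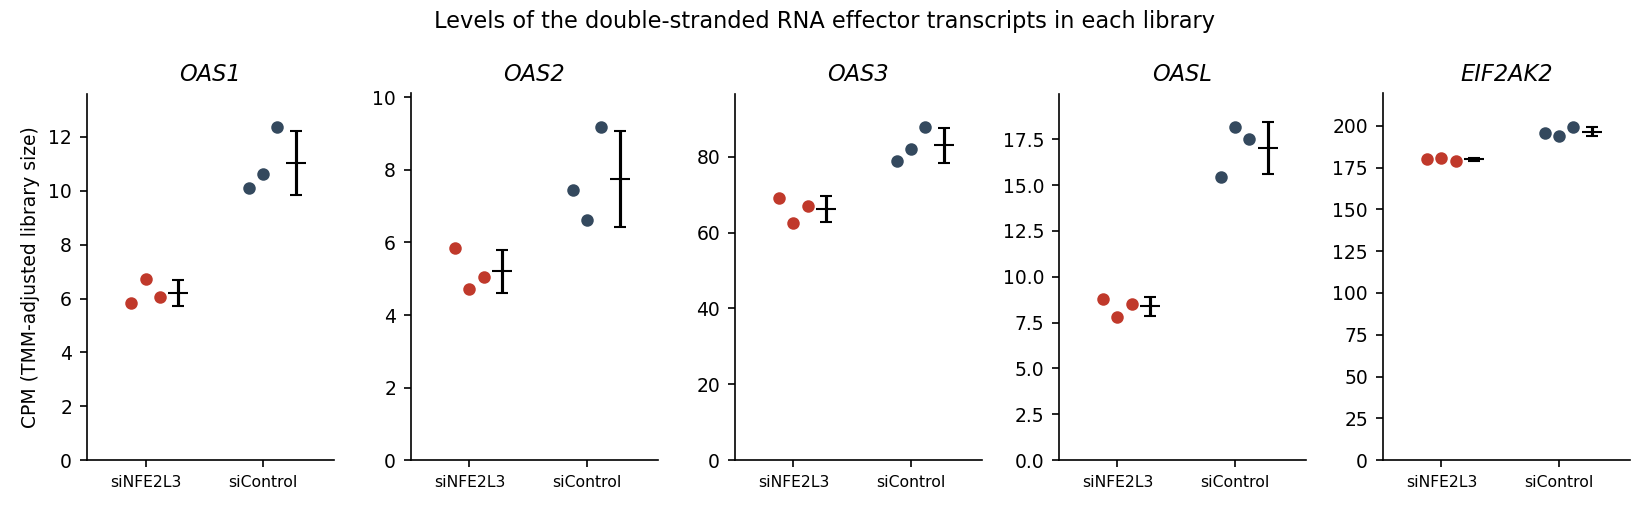
CPM of each member (y axis, TMM-adjusted, from 0) in the 3 siNFE2L3 libraries (red, left) and the 3 siControl libraries (dark, right), with the mean and SD beside each group. In every panel the siNFE2L3 points lie below all siControl points, with the widest relative gap for OASL (means 8.38 and 17.0 CPM) and the narrowest for EIF2AK2 (means 179.9 and 196.4 CPM).

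OAS1, the synthetase with a single catalytic unit, lies on chromosome 12 from 112906777 to 112933222 (plus strand, GRCh38, 8 merged exon blocks). It had 325, 379 and 311 reads in the siNFE2L3 libraries, against 535, 615 and 687 reads in the siControl libraries. Scaled for depth these were 5.82, 6.74 and 6.05 CPM in siNFE2L3, against 10.1, 10.6 and 12.4 CPM in siControl. The highest siNFE2L3 library stayed 3.34 CPM below the lowest siControl library. The log2 fold change was -0.83 ± 0.092 (SE; edgeR quasi-likelihood test, adjusted p = 1.88e-07). Only 0.949% of tested genes had a lower log2 fold change.

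OAS2, which carries a pair of OAS units, lies further along the same strand (112978395 to 113011723). The siNFE2L3 libraries had 327, 265 and 259 reads, against 395, 382 and 510 reads in the siControl libraries. This gave 5.85, 4.72 and 5.04 CPM in siNFE2L3, against 7.45, 6.61 and 9.19 CPM in siControl. Of the members it had the widest relative spread in siControl, where replicate 3 stood above the others. That replicate was the highest of siControl for OAS1, OAS3 and EIF2AK2 too, but not for OASL. For OAS2 the gap between the groups was 0.755 CPM. The log2 fold change was -0.57 ± 0.11 (SE; edgeR quasi-likelihood test, adjusted p = 4.23e-04). It was -0.43 without siControl replicate 3, with an adjusted p of 0.00659, the largest over its alternatives.

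OAS3, the long synthetase with a row of OAS units, lies between OAS1 and OAS2 (112938352 to 112973249). It was the most abundant family member, with 3863, 3515 and 3443 reads in the siNFE2L3 libraries, against 4191, 4750 and 4881 reads in the siControl libraries. The CPM were 69.1, 62.5 and 67.0 in siNFE2L3, against 79.0, 82.1 and 87.9 in siControl. The log2 fold change was -0.33 ± 0.048 (SE; edgeR quasi-likelihood test, adjusted p = 1.27e-05), a fall of 20.2% in the level. OAS3 is known as the main source of 2-5A in human cells.

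OASL, the family member without synthetase activity, lies apart from the others on the minus strand (121019111 to 121039242). It had 492, 440 and 437 reads in the siNFE2L3 libraries, against 820, 1051 and 972 reads in the siControl libraries. The CPM were 8.80, 7.83 and 8.51 in siNFE2L3, against 15.5, 18.2 and 17.5 in siControl. Each siNFE2L3 library held between 45.9% and 51.6% of the siControl mean. The log2 fold change was -1.03 ± 0.078 (SE; edgeR quasi-likelihood test, adjusted p = 3.77e-10), and 68 of the 19916 tested genes had a lower one.

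EIF2AK2, which encodes PKR, lies on chromosome 2 (37099210 to 37157065, minus strand, 17 merged exon blocks). The siNFE2L3 libraries had 10078, 10153 and 9185 reads, against 10376, 11227 and 11069 reads in the siControl libraries. The CPM were 180.3, 180.6 and 178.8 in siNFE2L3, against 195.6, 194.2 and 199.4 in siControl. Both groups were tight, with SDs of 0.999 and 2.69 CPM, and did not overlap. The log2 fold change was -0.13 ± 0.038 (SE; edgeR quasi-likelihood test, adjusted p = 0.0148). With 1 library left out the log2 fold change stayed between -0.14 and -0.12, while the call came near the threshold. The adjusted p was 0.0670 without siNFE2L3 replicate 3, 0.0447 without siNFE2L3 replicate 1, 0.0437 without siNFE2L3 replicate 2 and 0.0475 without siControl replicate 3. The scaling mattered too: with upper quartile scaling of all libraries the log2 fold change was -0.11 and the adjusted p 0.0496. Of the tested genes, 28.3% had a lower log2 fold change.

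Levels per exon length (RPKM) had the same order in both groups. EIF2AK2 was highest at 16.7 ± 0.093 RPKM in siNFE2L3 and 18.3 ± 0.25 RPKM in siControl (SD, n = 3 each). OAS3 followed with 8.03 ± 0.41 and 10.1 ± 0.55 RPKM in siNFE2L3 and siControl, and OASL with 2.38 ± 0.14 and 4.85 ± 0.40 RPKM. OAS1 had 1.25 ± 0.097 RPKM in siNFE2L3 and 2.23 ± 0.24 RPKM in siControl. OAS2 was lowest, with 0.831 ± 0.093 RPKM in siNFE2L3 and 1.24 ± 0.21 RPKM in siControl. Neighbours in this order did not overlap in either group.

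The summed RPKM of the OAS family was 13.0, 11.9 and 12.6 in the siNFE2L3 libraries, against 17.2, 18.3 and 19.6 in the siControl libraries, or 68.0% of the siControl mean (exact permutation test, two-sided p = 0.1, the smallest that 6 libraries allow). Within this sum the members' shares differed. OAS3 made up 64.2% ± 0.57 in siNFE2L3 and 54.8% ± 0.77 in siControl (SD, n = 3 each). OASL made up 19.1% ± 0.34 in siNFE2L3 and 26.4% ± 1.6 in siControl. OAS1 made up 10.1% ± 1.2 in siNFE2L3 and 12.1% ± 0.56 in siControl. The groups of each of these 3 shares did not overlap (exact permutation p = 0.1 each). As parts of the same sum, the shares depend on each other and are not separate results. The OAS2 share was 6.64% ± 0.48 in siNFE2L3 and 6.72% ± 0.88 in siControl, with overlapping groups (exact permutation p = 1).

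**Figure D2:**
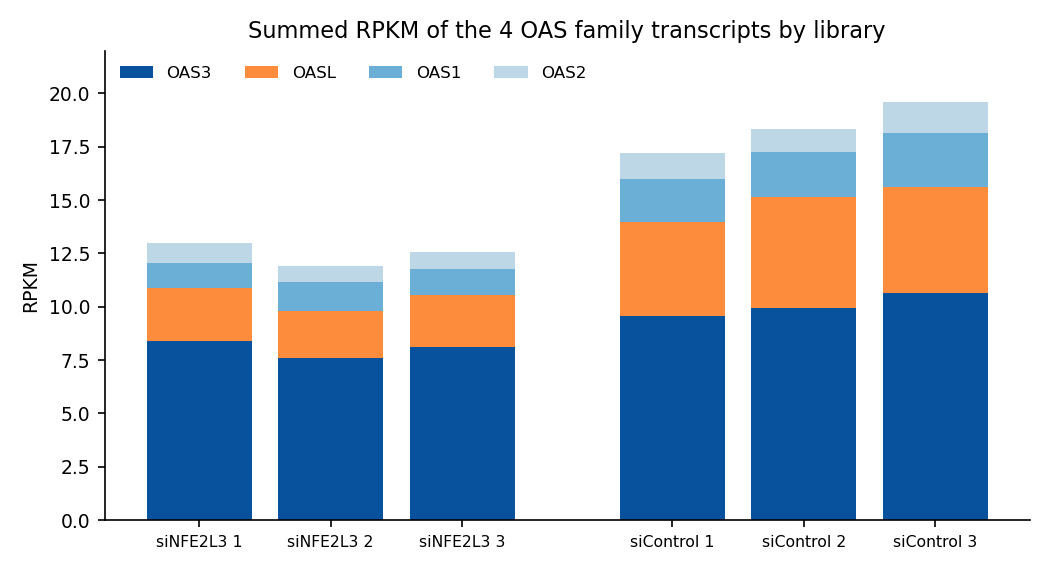
Stacked RPKM (y axis) of OAS3, OASL, OAS1 and OAS2 in each library, siNFE2L3 on the left and siControl on the right. The 3 siNFE2L3 bars sum to between 11.9 and 13.0 RPKM, below the siControl bars at 17.2 to 19.6 RPKM, and the OASL segment is shorter in siNFE2L3.

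Pairs of members were compared through the log2 ratio of their CPM within each library, 10 pairs in all. The smallest exact permutation p is 0.1, so no pair could pass 0.05. In 7 pairs the ratios of the groups did not overlap (adjusted p over the 10 pairs = 0.143 each). The 10 pairs share their genes and are not independent, and the share among other gene pairs was not computed. The ratio of OAS3 to OASL was 2.98 ± 0.013 in siNFE2L3 and 2.28 ± 0.096 in siControl on the log2 scale (SD, n = 3 each), a difference of 0.69. The ratio of OASL to EIF2AK2 differed by -0.89, that of OAS1 to EIF2AK2 by -0.70 and that of OAS1 to OAS3 by -0.50. The ratios of OAS2 to OASL, OAS2 to EIF2AK2 and OAS3 to EIF2AK2 differed by 0.46, -0.44 and -0.20. In 3 pairs the groups overlapped, so unlike falls could not be seen at this number of libraries. These were OAS1 with OAS2 (-0.26, and -0.39 to -0.13 when 1 library was left out), OAS2 with OAS3 (-0.24, -0.34 to -0.15) and OAS1 with OASL (0.20, 0.087 to 0.28).

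OAS1, OAS3 and OAS2 lie in a row with 5129 and 5145 bases between them, and OASL lies 8007 kb beyond OAS2. By point estimate the middle gene of the row, OAS3, had the smallest fall of the cluster. Its ratio to OAS2 overlapped between the groups, so a smaller fall than that of OAS2 could not be shown. The antisense transcript RP1-71H24.1 shares 92 exon bases with OAS1 on the opposite strand. Its mean level was 1.45 ± 0.24 CPM in siNFE2L3 and 2.26 ± 0.13 CPM in siControl (SD, n = 3 each; log2 fold change -0.64, edgeR adjusted p = 0.00521). How the counting treated strand is not stated, so reads over the shared bases cannot be assigned to either gene. EIF2AK2 shares 401 exon bases with AC007899.3 (log2 fold change -0.21, adjusted p = 0.0879) and 35 with GPATCH11 (0.090, adjusted p = 0.177), both on the opposite strand. Without siControl replicate 1, GPATCH11 was higher (0.14, adjusted p = 0.0289).

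**Figure D3:**
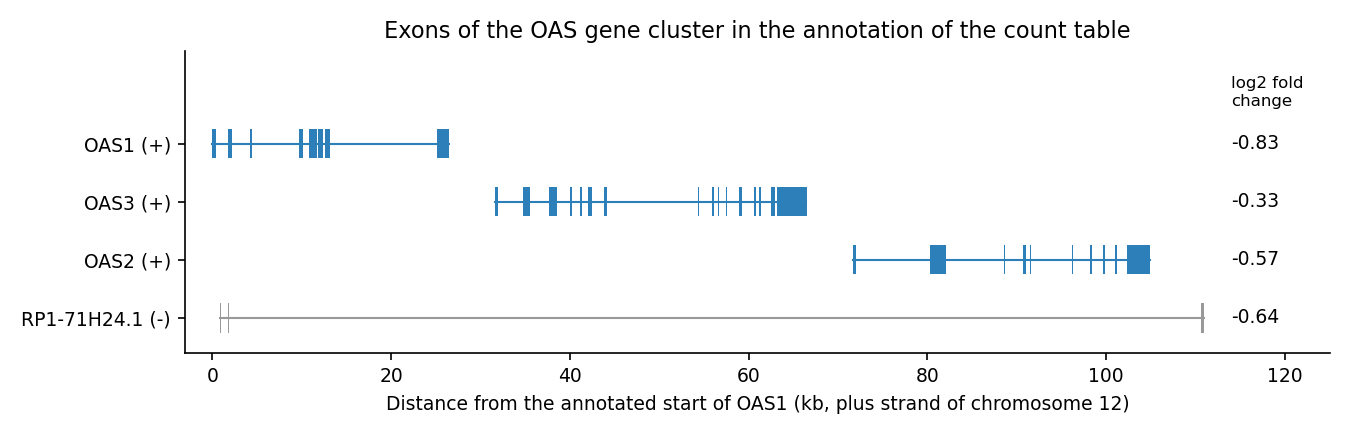
Exons (boxes) of OAS1, OAS3, OAS2 and the antisense RP1-71H24.1 by distance in kb from the annotated start of OAS1, with each gene's log2 fold change at the right. OAS1, OAS3 and OAS2 follow each other on the plus strand without overlap, with log2 fold changes of -0.83, -0.33 and -0.57.

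Of 10 other genes beside the members, 8 were tested, 0 were lower and 0 higher (edgeR; 0 lower and 1 higher at an unadjusted p under 0.05, and 0 in either direction by DESeq2, limma-voom or edgeR's exact test), with a median log2 fold change of 0.042. Near OASL, the ion channel gene P2RX7 had a log2 fold change of 0.15 (adjusted p = 0.0637). It passed with upper quartile scaling (adjusted p = 0.0335) and without siControl replicate 3 (adjusted p = 0.0266). Around the OAS cluster, DTX1 and RASAL1 had 0.30 and 0.57 mean CPM in siNFE2L3 and 0.23 and 0.63 in siControl, and RPH3A was too low to be tested. Around EIF2AK2, CEBPZ, NDUFAF7, PRKD3 and SULT6B1 had log2 fold changes of 0.057, -0.072, 0.013 and 0.028, none past the test, and QPCT was too low to be tested.

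Of 4 genes listed around 2-5A, 0 were lower and 1 was higher (edgeR; 0 lower and 2 higher at an unadjusted p under 0.05, and 0 lower by DESeq2, limma-voom or edgeR's exact test), with a median log2 fold change of 0.075. The higher one, ZCCHC3, neither makes nor degrades 2-5A. It encodes a co-sensor of double-stranded RNA and was at 15.4 mean CPM in siNFE2L3 and 11.1 in siControl (log2 fold change 0.48, adjusted p = 1.62e-05). ABCE1, which encodes a ribosome recycling factor, was at 38.1 mean CPM in siNFE2L3 and 39.2 in siControl (adjusted p = 0.593). PDE12, which encodes a 2-5A degrading enzyme, did not pass the test either (log2 fold change 0.18, adjusted p = 0.0978). Nor did AKAP7 (log2 fold change -0.030, adjusted p = 0.848).

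The list around PKR holds its regulators, the eIF2 and eIF2B subunits, the other eIF2α kinases and their targets. Of 20 tested genes 8 were lower and 0 higher (edgeR; 1 higher at an unadjusted p under 0.05, and 0 by DESeq2, limma-voom or edgeR's exact test), with a median of -0.093. DDIT3, the stress factor CHOP, had 104 mean CPM in siNFE2L3 and 122 in siControl (log2 fold change -0.23, adjusted p = 1.46e-04). PPP1R15B and PPP1CA, subunits of the phosphatase that reverses eIF2α phosphorylation, fell by 0.22 and 0.21 on the log2 scale. The PPP1CA call was lost without siNFE2L3 replicate 3 (adjusted p = 0.0536) or siControl replicate 2 (adjusted p = 0.0651). EIF2B2 and EIF2S3, subunits of eIF2B and eIF2, fell by 0.24 and 0.17, and the amino acid sensing kinase gene EIF2AK4 fell by 0.16. None of these 6 falls reached 0.25.

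Among double-stranded RNA sensors and binding proteins, 7 of 17 tested genes were lower and 1 was higher, with a median of -0.17. DDX58, the RIG-I with which OASL is known to act, had 59.4 mean CPM in siNFE2L3 and 85.4 in siControl (log2 fold change -0.53, adjusted p = 5.66e-08). IFIH1, which encodes MDA5, had 67.6 mean CPM in siNFE2L3 and 88.5 in siControl (-0.39, adjusted p = 2.44e-07). The endosomal receptor gene TLR3 had 2.48 mean CPM in siNFE2L3 and 4.14 in siControl (-0.73, adjusted p = 6.34e-05). ZC3HAV1, the antiviral protein ZAP, fell by 0.21, the ubiquitin ligase gene TRIM25 by 0.18 and DICER1 by 0.17 on the log2 scale.

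Interferon genes were barely read. Of 15 ligand and receptor genes 7 were tested, and the 8 untested ones, all ligands, averaged at most 0.0246 CPM in either group. Of the 7, 4 receptor genes were lower and 0 higher (edgeR; 0 at an unadjusted p under 0.05, and 0 by DESeq2, limma-voom or edgeR's exact test), with a median of -0.22. IL10RB, a chain of the lambda interferon receptor, fell by 0.39 on the log2 scale (adjusted p = 2.83e-05). IFNGR1, IFNAR2 and IFNAR1, chains of the gamma and type I receptors, fell by 0.22, 0.22 and 0.21. IFNLR1 had a log2 fold change of -0.23 (adjusted p = 0.230), and the only ligand gene tested, IFNE, 0.43 (adjusted p = 0.401) at a mean of 0.478 CPM in siNFE2L3 and 0.355 CPM in siControl.

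Of 10 genes for ISGF3, its kinases and the IRF factors, 5 were lower and 1 was higher, with a median of -0.12. IRF9, which encodes a subunit of ISGF3, had 53.9 mean CPM in siNFE2L3 and 68.7 in siControl (log2 fold change -0.35, adjusted p = 8.37e-06). STAT2, the gene of another subunit, was at 32.3 mean CPM in siNFE2L3 and 31.9 in siControl (0.016, adjusted p = 0.862). The kinase gene JAK1 fell by 0.34 and IRF1 by 0.32 on the log2 scale. JAK2 fell by 0.19, a call lost without siControl replicate 2 (adjusted p = 0.0585). IRF2 fell by 0.16, a call lost without siNFE2L3 replicate 1, siNFE2L3 replicate 2 or siControl replicate 3 (adjusted p = 0.127, 0.0513 and 0.133). IRF3, which acts before interferon is made, was higher by 0.18, a call lost without siNFE2L3 replicate 1 (adjusted p = 0.0559) or siControl replicate 3 (adjusted p = 0.0968). TYK2, IRF5 and IRF7 had log2 fold changes of -0.070, 0.037 and 0.11, none past the test.

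Of 42 other antiviral interferon-stimulated genes, all tested, 25 were lower and 1 was higher, with a median of -0.24. The ubiquitin-like modifier ISG15 had 39.2 mean CPM in siNFE2L3 and 58.5 in siControl (log2 fold change -0.58, adjusted p = 1.61e-08). IFIT2, an RNA-binding restriction factor, had 64.5 mean CPM in siNFE2L3 and 95.7 in siControl (-0.57, adjusted p = 1.11e-08), and its partner IFIT3 fell by 0.36 on the log2 scale. XAF1 fell by 0.68, PARP14 by 0.33 and IFI44 by 0.38. These 6 have the smallest adjusted p of the list and not the largest falls. The largest fall among the lower genes was that of IFITM1, an antiviral membrane protein gene named after its values had been seen, at 1.07 mean CPM in siNFE2L3 and 2.09 in siControl (log2 fold change -0.98 ± 0.20 SE, edgeR adjusted p = 5.58e-04). It has close copies in its family, between which reads can be split. By point estimate it lay between OASL and OAS1, differences that were not tested.

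**Figure D4:**
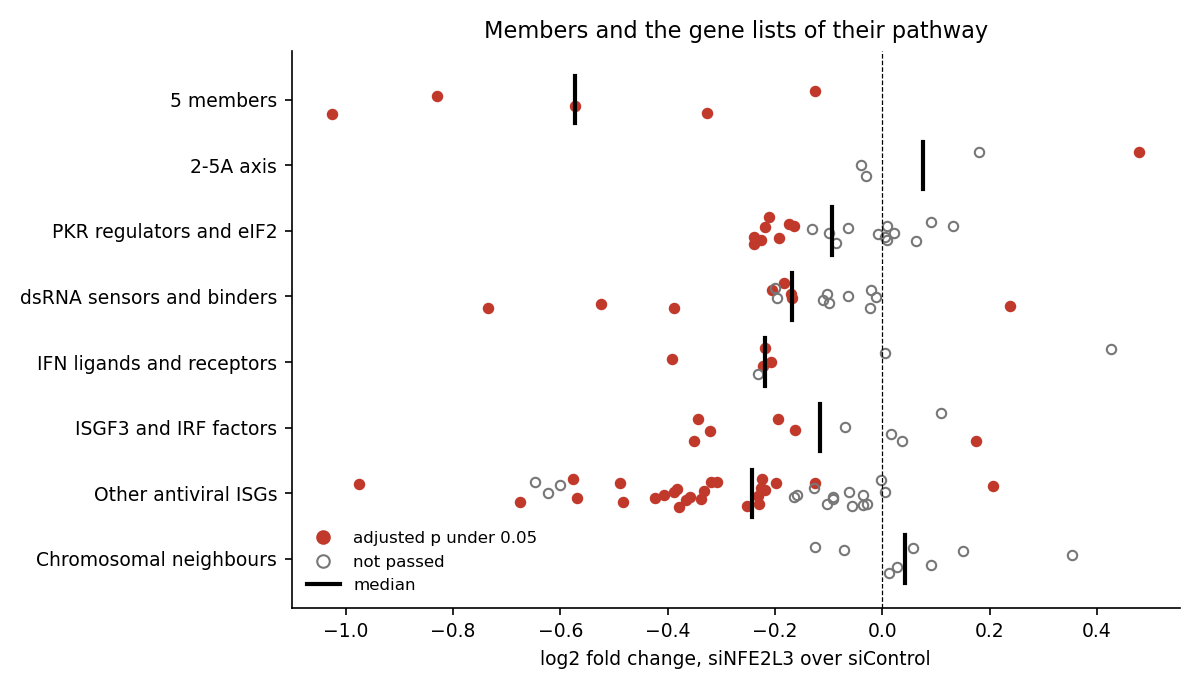
Log2 fold change (x axis, siNFE2L3 over siControl) of the 5 members and of every tested gene in the 7 lists, filled where the adjusted p is under 0.05, with a bar at each list's median. The members' median of -0.57 lies left of the medians of all 7 lists, which run from -0.24 to 0.075. Some list genes lie further left than that median, such as IFITM1 (-0.98), TLR3 (-0.73) and XAF1 (-0.68). OAS3 (-0.33) and EIF2AK2 (-0.13) lie right of it.

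For each member the genes with the nearest profile over the 6 libraries were found by the root mean square difference of log2 CPM, each centred on its mean, among 10664 genes for the OAS family and 10663 for EIF2AK2. They were CD274 (PD-L1), KLHL18 and CASP6 for OAS1, at differences of 0.061 to 0.070. For OAS2 they were CTSS, IL6 and PER2, further off at 0.096 to 0.11. For OAS3 they were RWDD2B, KLF4 and NFKB1, at 0.014 to 0.021, and for OASL GLO1, FAM136A and AXL, at 0.057 to 0.088. For EIF2AK2 they were PGK1, SNX2 and BSG, at 0.0083 to 0.011. The likeness is mostly that of the group difference. CD274 had 48.8 mean CPM in siNFE2L3 and 87.4 in siControl (log2 fold change -0.84), and GLO1 had 36.9 in siNFE2L3 and 74.9 in siControl (-1.02). The smallest change, that of SNX2, lost its call under 7 of 16 alternatives (log2 fold change -0.11, adjusted p = 0.0328, and up to 0.113 over these).

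Across 16 other ways of processing the counts or leaving out a library, every member kept a log2 fold change below 0. The ranges were -1.09 to -0.98 for OASL, -0.90 to -0.74 for OAS1, -0.68 to -0.43 for OAS2, -0.36 to -0.28 for OAS3 and -0.14 to -0.11 for EIF2AK2. The alternatives reuse the same 6 libraries, so these ranges do not show whether members differ. OASL, OAS1, OAS2 and OAS3 passed an adjusted p of 0.05 in each of the 16.

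**Figure D5:**
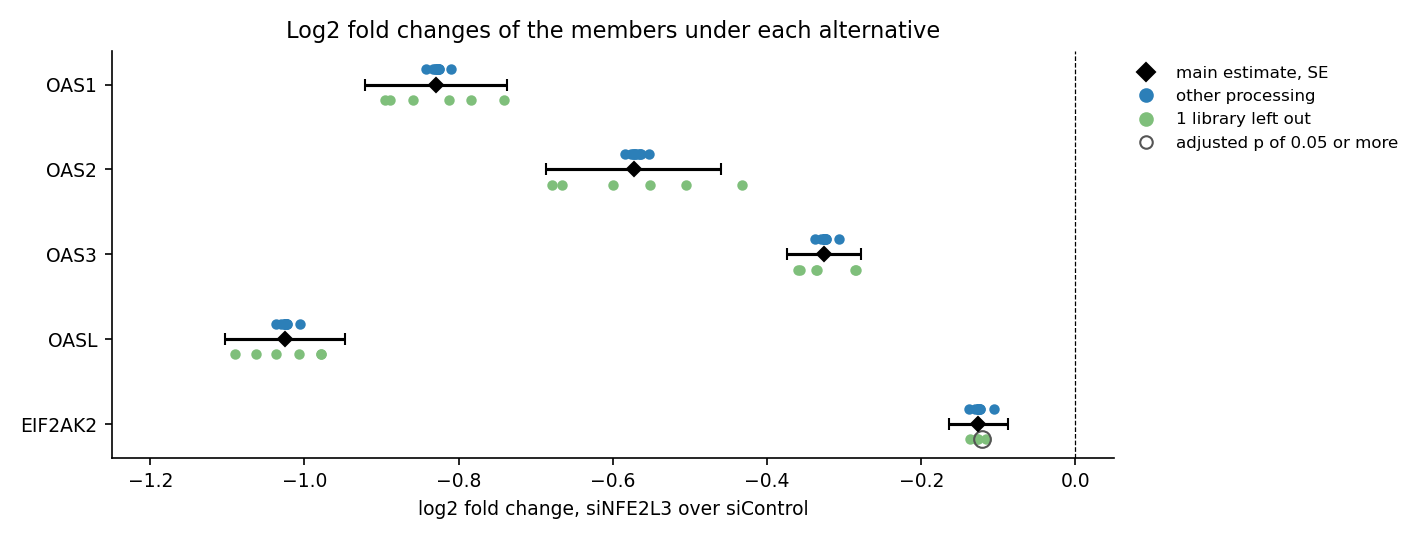
Log2 fold change (x axis, siNFE2L3 over siControl) of each member in the main estimate (diamond, bar of 1 SE), under 10 other ways of processing (blue) and with each of the 6 libraries left out (green). Open circles mark an adjusted p of 0.05 or more, which occurs once, for EIF2AK2 without siNFE2L3 replicate 3.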

How the data were processed

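RNA-seq of 786-O cells was analysed, with 3 siNFE2L3 and 3 siControl libraries. Per the labels, libraries were made with a stranded mRNA kit with unique molecular identifiers and read on a DNBSEQ-T7, while the methods of the paper give Illumina. According to the submitters' processing notes and the paper's supplement, the authors trimmed reads with Trimmomatic 0.36, built consensus reads from shared identifiers, aligned these to the Ensembl human genome (STAR 2.5.3a) and took exon counts by featureCounts (Subread 1.5.1). Raw counts, 1 per gene and library, are in the deposited table. Whether both mates of a read pair were counted is not stated. Of the nonzero counts under 30, 67.6% to 69.9% per library were even, so a count may stand for less than a whole fragment, and halved counts were tried for that reason. Its coordinates are those of GRCh38. The authors' own test used edgeR 3.12.1.

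CPM, RPKM and all model fits came from edgeR 4.0.16 and limma 3.58.1 under R 4.3.3. filterByExpr (minimum count 10) kept 19916 of 56303 genes. Counts were scaled by TMM and tested with edgeR's quasi-likelihood test, siNFE2L3 over siControl, with Benjamini-Hochberg adjustment over all tested genes. Single values and pairs were tested by exact two-sided permutation over the 6 libraries in Python 3.11.15 with SciPy 1.17.1, on log2 CPM with a prior count of 2 for the pairs. Replicates of a group differed by more than the sampling noise of the raw counts (chi-square per degree of freedom 4.01 to 7.61). This value is too high if a count stands for less than a whole fragment, and it was not computed on halved counts. The biological coefficient of variation was 4.76%. The procedure was tested on simulated data. Alternatives changed the scaling (RLE, upper quartile, none), the test (DESeq2 1.42.0, limma-voom, edgeR's exact test), the filter (none, or every library at 10 counts or more), the counts (halved) or the design (a replicate block, or each library left out).

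The members and lists were chosen with earlier results of these data known. Some genes of the lists are not reported here and were left out of the lists' counts and medians. Named genes are the 5 members, NFE2L3, every gene of the 2-5A, ISGF3 and neighbour lists, up to 6 genes with the smallest adjusted p of each other list, the 3 nearest profiles of each member (mean of at least 5 CPM), and genes whose exons overlap a member's. IFITM1 is named outside this rule. Promoter windows come from RefSeq (GRCh38.p14).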

Additional observations from a re-analysis of the deposited data

How the results depend on the processing

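All 5 members stayed lower at an adjusted p under 0.05 under every alternative except without siNFE2L3 replicate 3, where 4 did, and the study's cutoffs, where 1 did. EIF2AK2 lost its call without siNFE2L3 replicate 3, with log2 fold changes from -0.14 to -0.12 over the libraries left out. Counts of lower genes in the lists moved over the alternatives. They ran from 6 to 10 around PKR, 6 to 8 among the double-stranded RNA sensors, 4 to 5 in the ISGF3 list and 22 to 28 among the other antiviral genes. The list around PKR gained 1 higher gene with upper quartile scaling, with at least 10 counts in every library and with halved counts, and held 0 to 1 over the libraries left out. The higher gene of the ISGF3 list (0 to 1) depended on the library left out. Upper quartile scaling called 1 neighbour, P2RX7, higher (0 to 1 over the libraries left out). Small changes of genes that had not passed turned sign when a library was left out: AKAP7 (-0.082 to 0.013), IRF7 (-0.080 to 0.43), STAT2 (-0.0060 to 0.043), IRF5 (-0.073 to 0.10), RASAL1 (-0.26 to 0.047), PRKD3 (-0.022 to 0.075) and SULT6B1 (-0.020 to 0.085). No scaling moved the median of all tested genes by more than 0.02. The cause of these changes was not tested.

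Libraries with the same number did not deviate together (correlations of -0.10, -0.21 and -0.13 over 5423 genes), so the numbers were not taken as pairs. With a replicate block 5 members were lower, and EIF2AK2 had an adjusted p of 0.0368 by edgeR's quasi-likelihood test. The count of all lower genes was 2504 with the block and 2783 without it. RP1-71H24.1, at 1.45 mean CPM in siNFE2L3 and 2.26 in siControl, is a lower call with little depth behind it.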
